A study of Homo sapiens with 6 samples.

Results

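The BCL2 family was followed through the splice junctions of 5 of its genes: BCL2L1, MCL1, BCL2L11, BAX and BID. A junction was taken as a member when its intron lay inside the hg19 window of the gene, on the gene's strand. This gave 152 junctions of the 780566 in the series. Of these, 53 were annotated and 99 unannotated, 149 had a uniquely mapped read, and 49 had at least 10 unique reads over the 6 libraries. The 152 junctions held 21463 unique reads. The rule uses position and strand alone, not a measured value.

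The libraries were made from poly(A)+ RNA of K562, a human chronic myeloid leukaemia line with erythroid features. In 3 libraries the genotype was U2AF1 wild type knock-in (WT), and in 3 it was U2AF1 S34F (S34F). Both genotypes thus come from the same cell line, and no other treatment, time or agent is named for either. The U2AF1 protein, the smaller partner in the U2AF dimer, contacts the AG at the end of an intron, and S34F is a recurrent substitution of that protein in myeloid neoplasms. How many clones the libraries represent, and whether replicates were separate cultures, is not given in the sources used here, so p-values measure only the spread between these samples, which may be technical.

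The BCL2 family sets whether the mitochondrial outer membrane is opened during apoptosis. BCL2L1 (as Bcl-xL) and MCL1 hold the membrane closed, BCL2L11 (Bim) and BID are BH3-only proteins that signal for its opening, and BAX is an effector that forms the pore. Several of these genes are spliced into isoforms of opposite or altered activity, such as Bcl-xL and Bcl-xS or MCL-1L and MCL-1S, which makes splice site choice in them a subject of its own in leukaemia cells.

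Unique spliced reads per library ranged from 18074706 (S34F replicate 2) to 39279169 (S34F replicate 3). All 6 K562 marker entries (the γ-globin pair HBG1 and HBG2, HBE1, HBZ, TFRC, GATA1 and KLF1) had reads. Their summed level ranged from 8819 to 15865 RPM in WT and from 11932 to 22650 in S34F, unique and multi-mapped reads together, where RPM is junction reads per 1000000 spliced reads of the library. The lymphoid list summed to between 2.85 and 7.63 RPM in WT and between 1.91 and 3.26 in S34F, with 3 of 4 genes detected and MS4A1 at 0, and the monocyte gene CD14 did not exceed 0.0553. The embryonic globin gene HBZ was higher in every S34F library than in any WT library, with means of 174 and 472 RPM of unique reads. HBE1, also an embryonic globin gene, did the same, with 90.1, 60.0 and 43.7 RPM in WT and 1282, 143 and 180 in S34F, so that S34F replicate 1 stood apart. The T-cell gene CD3E was lower in every S34F library (1.17 ± 0.97 and 0.186 ± 0.16 RPM). What part these differences between the libraries have in the results below was not tested.

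Across the family, 1 of the 105 events tested was called, an exon of BAX. An acceptor usage event is the share of reads leaving a 5′ splice site that joined a given 3′ splice site. A donor usage event is the share entering a 3′ splice site that came from a given 5′ splice site. A cassette event is the inclusion level of an exon of at most 500 nt, the mean of its 2 inclusion junctions over that mean plus the skipping junction. Junction abundance is the level of single junctions, normalised between libraries. Share events were tested where no library had fewer than 20 reads, and were called at an edgeR adjusted p under 0.05 over the whole class together with a difference of at least 10 percentage points.

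Of 28 acceptor usage events in the 5 genes, edgeR called 0, where 2.12% of all 51522 events were called. Unadjusted edgeR p-values under 0.05 were found for 6 of the 28, and for 19.9% of all events. DESeq2 and limma also called 0 of the 28, with 2 and 7 below that unadjusted level. Of 35 donor usage events, edgeR called 0 (0.934% of all 48269). Unadjusted p-values under 0.05 were found for 2 of the 35 (17.3% of all), and DESeq2 and limma each called 0 with 2 at that level. Of 14 cassette events, 1 was called by edgeR and 0 by DESeq2 and limma, against 2.79% called by edgeR among all 19137. Each of the 3 tools gave 5 of the 14 an unadjusted p under 0.05, a level that 24.1% of all cassette events reached with edgeR. Of 28 junctions tested for abundance, edgeR called 0 (0.265% of all 117948). The unadjusted p was under 0.05 for 1 of the 28 (13.7% of all), and DESeq2 called 0 with 1 at that level. The share of calls in the 5 genes was therefore not read as different from that in the series.

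Sizes of the differences are given beside the same over all events. The median absolute difference was 3.42 percentage points for the members and 1.48 for all events in acceptor usage. It was 1.76 and 1.43 in donor usage, and 2.91 and 1.74 among cassette exons. For junction abundance it was 0.24 for the members and 0.26 for all junctions on the log2 scale. The groups did not overlap in 8 of the 28 acceptor events (25.2% of all), 7 of the 35 donor events (22.4% of all), 7 of the 14 cassette events (29.4% of all) and 3 of the 28 junctions (17.9% of all). Of the cassette events without overlap, 4 were in BAX, and some of these share a skipping junction and so its reads. Where a splice site has only 2 junctions, its events are mirror images. The events are thus not independent of each other.

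**Figure D1:**
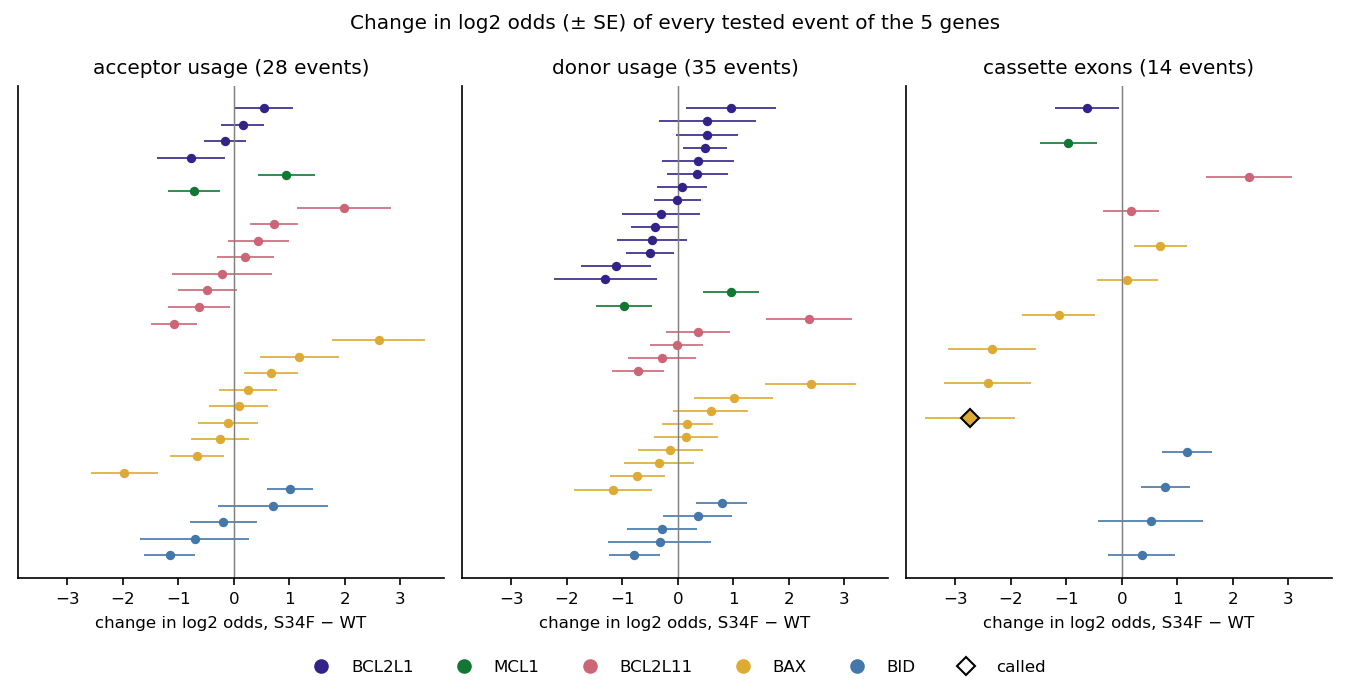
Change in log2 odds between S34F and WT (x axis) with its standard error for each tested acceptor usage event (28), donor usage event (35) and cassette exon (14), coloured by gene; the diamond is the event called by edgeR. Points right of 0 were higher in S34F, and the called BAX exon lies at -2.74.

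The summed junction reads of each gene did not separate the genotypes. They are given in RPM, unique junction reads per 1000000 unique spliced reads, and are compared only within a gene because genes differ in their number of introns. In these bulk libraries, fewer cells with a transcript and less of it per cell cannot be told apart. BCL2L1 had 21.0, 21.3 and 18.7 in the WT libraries and 22.0, 21.1 and 23.5 in the S34F libraries. The groups overlapped, since WT replicate 2 was above S34F replicate 2. MCL1 had 46.3, 31.8 and 40.4 in WT and 44.2, 34.9 and 41.6 in S34F, with the highest and the lowest value both in WT. BCL2L11 had 13.3, 14.7 and 13.7 in WT and 9.25, 12.7 and 15.8 in S34F, so that the S34F libraries lay on both sides of the WT range. The effector BAX showed the same arrangement, with 37.3, 34.2 and 39.3 in WT and 27.1, 33.2 and 41.9 in S34F. BID had 30.2, 32.2 and 29.0 in WT and 22.8, 37.2 and 34 in S34F. S34F replicate 1 was the lowest of all 6 libraries for BCL2L11, BAX and BID. Two-sided exact permutation tests gave p = 0.2 for BCL2L1, 0.9 for MCL1, 0.7 for BCL2L11, 0.6 for BAX and 0.9 for BID. Each adjusted p over the 5 genes was 0.9, and 3 libraries against 3 cannot give a p below 0.1.

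**Figure D2:**
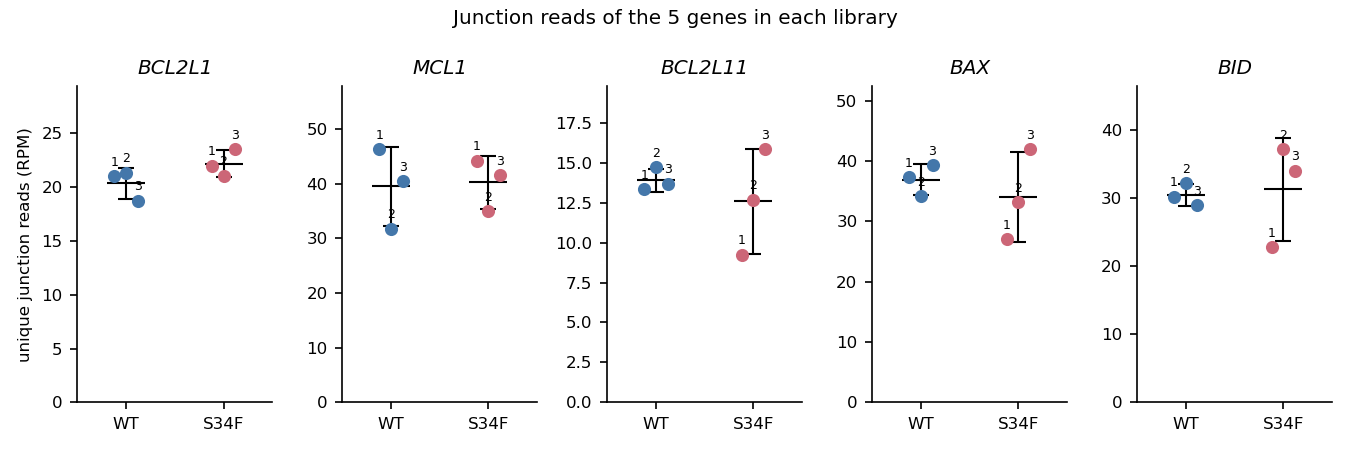
Unique junction reads per 1000000 unique spliced reads (RPM, y axis) of BCL2L1, MCL1, BCL2L11, BAX and BID in the WT and S34F libraries; points are libraries with their replicate number, and bars are the mean and SD of 3. The groups overlap in each of the 5 genes, and S34F replicate 1 is the lowest library for BCL2L11, BAX and BID.

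BCL2L1 is transcribed from the minus strand of chromosome 20. Its main coding exon, exon 2, ends at either of 2 annotated 5′ splice sites. The one nearer exon 3 (intron 30253890 to 30309457) gives Bcl-xL, and the one 189 nt further upstream in the exon (intron 30253890 to 30309646) removes 63 codons and gives Bcl-xS, which promotes apoptosis. The Bcl-xS site took 6.89%, 8.04% and 13% of the reads entering exon 3 in the WT libraries and 6.31%, 4.56% and 9.50% in the S34F libraries. WT replicate 3 was the highest and S34F replicate 2 the lowest, and the groups overlapped. The group means were 9.32% ± 3.3 and 6.79% ± 2.5 (SD, n = 3 each), a change of -0.41 in log2 odds (SE 0.44, edgeR adjusted p = 0.698). Reads entering exon 3 numbered 207 to 579 per library. Of all reads on the Bcl-xS junction, 33.6% were multi-mapped and did not enter these shares, against 2.9% on the Bcl-xL junction.

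The Bcl-xL site itself took 84.7% ± 3.5 in WT and 88.9% ± 3.3 in S34F (edgeR adjusted p = 0.583). The level of the Bcl-xL junction was 10.4, 11.7 and 8.62 RPM in WT and 11.6, 12.1 and 12.6 in S34F. The groups overlapped only through WT replicate 2 and S34F replicate 1, and the log2 change was 0.22 (SE 0.17, edgeR adjusted p = 0.595). Bcl-xL was thus the major product of this choice in all 6 libraries.

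Upstream of exon 2, BCL2L1 has several 5′ splice sites and 2 acceptors that lie 18 nt apart, at 30310134 and 30310152. From the most used 5′ site, at 30310420, the acceptor nearer the coding sequence (30310134) took 31.7%, 41.3% and 48.0% in WT and 40.1%, 31.7% and 38.9% in S34F. The groups overlapped, with the highest library in WT. The mean went from 40.3% ± 8.2 to 36.9% ± 4.5 (edgeR adjusted p = 0.873 for a log2 odds change of -0.16 with SE 0.38). An unannotated 5′ site at 30310219 supplied 30.7%, 30.6% and 34.5% of the reads entering the acceptor at 30310134 in WT and 23.8%, 35.9% and 18.5% in S34F. S34F replicates 1 and 3 were below every WT library and replicate 2 was above them (edgeR adjusted p = 0.602 for a log2 odds change of -0.50 with SE 0.43). A second unannotated junction into this acceptor, from the 5′ site at 30310246, took 8.76% ± 4.0 in WT and 13.3% ± 6.6 in S34F (edgeR adjusted p = 0.699).

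BCL2L1 had the largest unannotated share of the 5 genes. Unannotated junctions held 14.3% ± 1.1 of its unique reads in WT and 12.4% ± 2.6 in S34F, where the means of the other 4 genes lay between 0.102% and 3.61% and those of the whole series at 1.14% and 1.31%. These include an unannotated 80 nt exon inside the long intron (30277147 to 30277226), included at 3.11%, 1.86% and 1.76% in WT and 1.09%, 1.57% and 1.69% in S34F. Every S34F value was below every WT value, by a small margin, and the change was not called (2.24% ± 0.75 to 1.45% ± 0.32, edgeR adjusted p = 0.548 for a log2 odds change of -0.62 with SE 0.58). Averaged over its inclusion junctions, the exon had 8.5, 5.5 and 3 reads in WT and 3, 3.5 and 8.5 in S34F, so the separation rests on few reads.

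MCL1 lies on the minus strand of chromosome 1 and has 3 exons. Skipping of exon 2 (150550720 to 150550967, 248 nt) turns MCL-1L, which protects the cell, into MCL-1S, which lacks the membrane anchor and promotes apoptosis. The skipping junction (150549968 to 150551318) took 3.29%, 1.37% and 0.718% of the reads entering exon 3 in WT and 2.74%, 5.16% and 3.33% in S34F. WT replicate 1 lay inside the S34F range, so the groups overlapped. The share was 1.79% ± 1.3 in WT and 3.74% ± 1.3 in S34F (n = 3 each; edgeR adjusted p = 0.333 for a log2 odds change of 0.97 with SE 0.51), with 368 to 871 reads per library at the acceptor. Without WT replicate 1 the change was 1.79 (edgeR adjusted p = 0.0607), and without WT replicate 3 it was 0.59 (edgeR adjusted p = 0.637). Inclusion of exon 2, computed from both of its junctions, was 98.0% ± 1.5 and 95.9% ± 1.5 (edgeR adjusted p = 0.256 for a log2 odds change of -0.96 with SE 0.51). Without WT replicate 1 it was -1.80 with an edgeR adjusted p of 0.0353, at a difference of shares under the 10 points a call needed. The junctions of the long form, 150549968 to 150550719 and 150550968 to 150551318, had a log2 change of -0.01 each (SE 0.18 each, edgeR adjusted p = 0.992 and 0.986). MCL1 had the fewest junctions of the 5 genes, 3 with at least 10 reads, and the most unique reads, 6053.

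BCL2L11, on the plus strand of chromosome 2, encodes Bim in 3 main forms. BimEL keeps the sequence between 111881447 and 111881626 as exon, BimL removes these 180 nt as an intron, and BimS also lacks the following 90 nt (111881627 to 111881716) by joining 111881447 to 111907620. BimEL is not seen by a junction of its own here, so the data give BimL against BimS. The BimS junction took 11.9%, 24.5% and 16.2% of the reads leaving this inner 5′ site in WT and 7.32%, 13.3% and 13.4% in S34F. WT replicate 1 was below S34F replicates 2 and 3, and the groups overlapped. The mean was 17.5% ± 6.4 in WT and 11.3% ± 3.5 in S34F (edgeR adjusted p = 0.591 for a log2 odds change of -0.63 with SE 0.57), on 37 to 127 reads per library. The level of the BimL junction was 1.70 ± 0.27 RPM in WT and 2.14 ± 0.59 in S34F (log2 change 0.32, SE 0.27, edgeR adjusted p = 0.645).

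Larger separations in BCL2L11 lay at the next 5′ site, 111881717, from which BimEL and BimL both continue. The junction to 111907620, which leads to the exon with the BH3 domain, took 75.0%, 80.5% and 87.2% of the reads leaving this site in WT and 66.7%, 62.7% and 68.3% in S34F. All S34F libraries were below all WT libraries. The mean share was 80.9% ± 6.1 and 65.9% ± 2.9 (n = 3 each; 67 to 199 reads per library), a difference of -15.0 percentage points that was not called (edgeR adjusted p = 0.131 for a log2 odds change of -1.08 with SE 0.42). Without WT replicate 1 it was called (log2 odds -1.35, edgeR adjusted p = 0.0441). Leaving out any other library gave log2 odds from -1.18 to -0.836 with edgeR adjusted p from 0.221 to 0.312. Without WT replicate 1, acceptor calls over the whole series also rose, from 1092 to 1932. They were between 77 and 635 when any other library was left out.

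The reads that did not go to 111907620 went mainly to 2 other annotated acceptors. The acceptor at 111886203, which begins an exon known to end Bim transcripts that lack the BH3 domain, took 18.3%, 16.9% and 10.3% in WT and 24.7%, 28.4% and 19.1% in S34F. Again no S34F value fell within the WT range (15.2% ± 4.3 and 24.0% ± 4.7, edgeR adjusted p = 0.367). The second is a 33 nt exon (111902065 to 111902097, 11 codons if translated in frame). It was included at 4.29%, 0.524% and 0% in WT and at 8.47%, 7.69% and 7.80% in S34F. WT replicate 1 held most of the WT inclusion, and all S34F libraries were above it. The mean inclusion was 1.61% ± 2.3 and 7.99% ± 0.42 (edgeR adjusted p = 0.0801 for a log2 odds change of 2.30 with SE 0.78), a difference of 6.38 percentage points. Without WT replicate 1 the log2 odds were 4.32 with an edgeR adjusted p of 0.00971, still with a difference below the 10 points a call needed, and with multi-mapped reads added they were 1.62 with an edgeR adjusted p of 0.126. Its 2 junctions rested on 23 and 25 unique reads over the 6 libraries, of which WT held 4 each.

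Downstream in BCL2L11, the junctions around an exon of 125 nt (111911357 to 111911481) had lower mean levels in S34F. The junction into this exon, from 111907725, had 0.629, 1.12 and 1.14 RPM in WT and 0.384, 0.277 and 0.535 in S34F. Every S34F library was below every WT library, and this was the member junction with an unadjusted edgeR p under 0.05 (0.0106), but it was not called (log2 change -1.24, SE 0.41, edgeR adjusted p = 0.222). The junction out of the exon had a log2 change of -1.20 (SE 0.60, edgeR adjusted p = 0.400), and the one that skips it, from 111907725 to 111921709, of -0.79 (SE 0.37, edgeR adjusted p = 0.376). At the 5′ site 111907725 the share into the exon was 36.3% ± 10.3 in WT and 29.8% ± 12.3 in S34F, and the groups overlapped (edgeR adjusted p = 0.678).

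BID, on the minus strand of chromosome 22, encodes a BH3-only protein that caspase-8 cleaves to its active form. Reads leaving its first 5′ site, at 18257146, joined exon 2 (18232871 to 18232940, 70 nt), exon 3 (18226569 to 18226779, 211 nt) or exon 4. Exon 2 took 66.7%, 58.5% and 64.5% in WT and 86.0%, 74.0% and 75.9% in S34F. All S34F libraries were above all WT libraries. The mean was 63.2% ± 4.2 and 78.6% ± 6.5 (n = 3 each; 50 to 162 reads per library), a difference of 15.4 percentage points that was not called (edgeR adjusted p = 0.162 for a log2 odds change of 1.02 with SE 0.42).

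The direct junction from exon 1 to exon 4 of BID (18222255 to 18257146), which leaves out exons 2 and 3, was the counterpart. It took 25.0%, 37.2% and 21.0% in WT and 10%, 13.5% and 18.5% in S34F. The groups did not overlap, with WT replicate 2 the highest library and S34F replicate 1 the lowest (27.7% ± 8.5 and 14.0% ± 4.3, edgeR adjusted p = 0.144 for a log2 odds change of -1.16 with SE 0.46). The junction from exon 1 to exon 3 took 9.03% ± 5.2 and 7.35% ± 4.5, with overlapping groups (edgeR adjusted p = 0.907). Measured as a cassette against the exon 1 to exon 4 junction, exon 2 was included at 59.2%, 44.4% and 60.6% in WT and 81.5%, 73.7% and 67.6% in S34F. This was the largest difference of shares among all member events, 19.5 percentage points without overlap of the groups, yet it was not called (54.8% ± 9.0 and 74.3% ± 7.0, edgeR adjusted p = 0.119 for a log2 odds change of 1.18 with SE 0.45). Its reads numbered 27 to 92.5 per library, where inclusion counts as the mean of 2 junctions. The 2 were exon 1 to exon 2 and an unannotated junction from exon 2 to exon 4 (18222255 to 18232870). The latter held 11 unique reads over the 6 libraries, 6 in WT and 5 in S34F. The junction from exon 2 to exon 3, with 535 unique reads, did not enter this level. The level is thus not the total inclusion of exon 2, and it shares reads with the exon 1 events above. Against the exon 1 to exon 3 junction, inclusion of exon 2 was 89.9% ± 4.9 and 92.2% ± 5.7 (edgeR adjusted p = 0.759). The junctions shared by the BID isoforms downstream, between exons 4, 5 and 6, had log2 changes of -0.08 and 0.01 (edgeR adjusted p = 0.899 and 0.995).

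BAX lies on the plus strand of chromosome 19. Its exon 2 (49458805 to 49458856, 52 nt) and exon 3 (49458944 to 49459090, 147 nt) lie between exon 1 and exon 4, and an annotated junction from exon 1 to exon 4 (49458220 to 49459454) leaves out both. Set against that junction, exon 2 was included at 100%, 97.8% and 95.1% in WT and at 76.0%, 87.9% and 87.4% in S34F. All S34F libraries were below all WT libraries, with S34F replicate 1 the lowest. Inclusion fell from 97.7% ± 2.4 to 83.8% ± 6.7 (n = 3 each; edgeR adjusted p = 0.0486 for a log2 odds change of -2.74 with SE 0.80), the 1 event called in the 5 genes. This level averages the exon 1 to exon 2 junction with that from exon 2 to exon 4. The junction from exon 2 to exon 3, with 580 unique reads, does not enter it. Set against the exon 1 to exon 3 junction, exon 2 was included at 97.4% ± 0.39 in WT and 94.6% ± 0.53 in S34F. Without overlap of the groups, that change of -2.83 percentage points was not called (edgeR adjusted p = 0.305, log2 odds -1.14, SE 0.66). The exon 1 to exon 3 junction had 2, 2 and 2 unique reads in WT and 3, 3 and 9 in S34F. Of all its reads, 52.3% were multi-mapped. Of all cassette events tested, 1.73% were called lower in S34F. The call was lost with DESeq2 (adjusted p = 0.113), with limma (adjusted p = 0.0583), with multi-mapped reads added, and without each library in turn except WT replicate 3.

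The counts behind this call were low. The exon 1 to exon 4 junction had 0, 1 and 2 unique reads in WT and 6, 4 and 10 in S34F, or 3 against 20 in all. The inclusion side, exon 1 to exon 2 averaged with exon 2 to exon 4, gave a total of 25 to 79.5 reads per library together with the skipping reads. Multi-mapped reads on the exon 1 to exon 4 junction were 8, 13 and 8 in WT and 5, 6 and 18 in S34F, 29 in each group, and made up 71.6% of all its reads. On the exon 2 to exon 4 junction the multi-mapped reads were 8, 14 and 8 in WT and 5, 6 and 19 in S34F, within 1 read of the former in every library. With the multi-mapped reads counted, the change in log2 odds was -0.70 (edgeR adjusted p = 0.295). In that setting nearly equal counts enter the skipping side and 1 junction of the inclusion side. It therefore cannot decide whether the change from unique reads holds. Which position those reads belong to was not tested.

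Other BAX events that use the exon 1 to exon 4 junction share its reads, and none of them was called. From the 5′ site of exon 1 (49458220), exon 2 took 97.2%, 95.8% and 93.8% of the reads in WT and 79.1%, 87.7% and 85.2% in S34F. No S34F library reached the lowest WT library (95.6% ± 1.7 and 84.0% ± 4.4, edgeR adjusted p = 0.0566 for a log2 odds change of -1.98 with SE 0.60). The share joining exon 4 was 0%, 1.39% and 3.13% in WT and 14.0%, 7.02% and 7.81% in S34F (edgeR adjusted p = 0.0680). The share joining exon 3 was 2.91% ± 0.19 and 6.42% ± 1.0 (edgeR adjusted p = 0.372), on the few unique reads of that junction given above. Inclusion of exons 2 and 3 as a stretch went from 99.3% ± 0.71 to 96.3% ± 1.0 (edgeR adjusted p = 0.0718). With multi-mapped reads added, the log2 odds change of the exon 2 share was -0.70 (edgeR adjusted p = 0.392). In the same setting that of the exon 4 share went from 2.61 to 0.56 (edgeR adjusted p = 0.551), and that of the stretch from -2.42 to -0.40 (edgeR adjusted p = 0.630).

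Exon 3 of BAX is 49 codons long, and its skipping from exon 2 to exon 4 is the change that defines Bax-delta. Set against that skipping junction (49458857 to 49459454), exon 3 was included at 94.1%, 88.8% and 88.9% in WT and 97.2%, 94.6% and 91.7% in S34F. WT replicate 1 was above S34F replicate 3, and the groups overlapped (90.6% ± 3.1 and 94.5% ± 2.8, edgeR adjusted p = 0.393 for a log2 odds change of 0.69 with SE 0.48). This skipping junction thus had a lower mean in S34F while the exon 1 to exon 4 junction had a higher one, and 39% of its reads were multi-mapped. A 98 nt exon between exons 4 and 5 (49463496 to 49463593), the extra exon of Bax-epsilon, was included at 2.31% ± 0.60 and 2.29% ± 0.96 (edgeR adjusted p = 0.930). An unannotated acceptor 49 nt upstream of the last exon, at 49464739, took 6.53% ± 3.5 and 6.13% ± 0.76 of the reads leaving exon 5 (edgeR adjusted p = 0.943). The most used BAX junctions from exon 4 to exon 5 and from exon 5 to the last exon, 49459591 to 49464066 and 49464172 to 49464788, had log2 changes of -0.24 and -0.16 (edgeR adjusted p = 0.609 and 0.810).

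**Figure D3:**
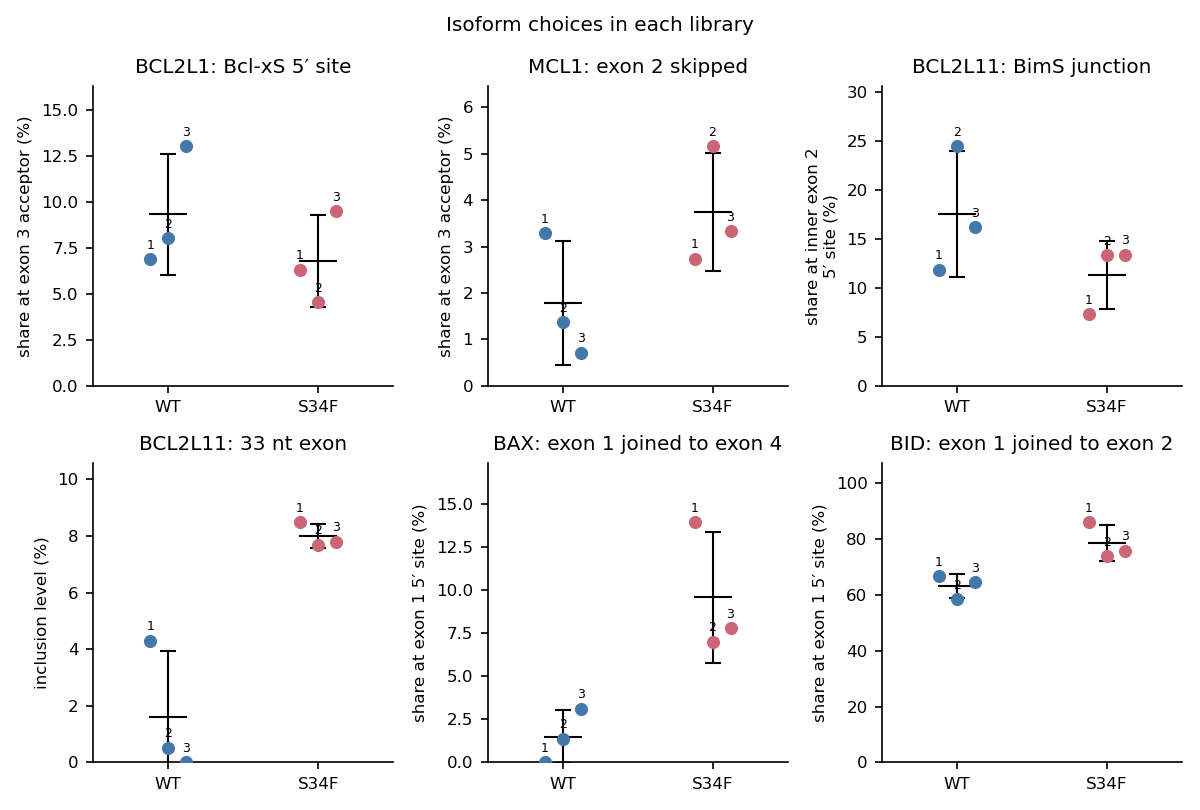
Share or inclusion level in percent (y axis) of 6 isoform choices in BCL2L1, MCL1, BCL2L11, BAX and BID in the WT and S34F libraries; points are libraries with their replicate number, and bars are the mean and SD of 3. The groups overlap for Bcl-xS, MCL1 exon 2 skipping and BimS, and do not overlap for the 33 nt exon of BCL2L11, the BAX exon 1 to exon 4 junction and BID exon 2.

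**Figure D4:**
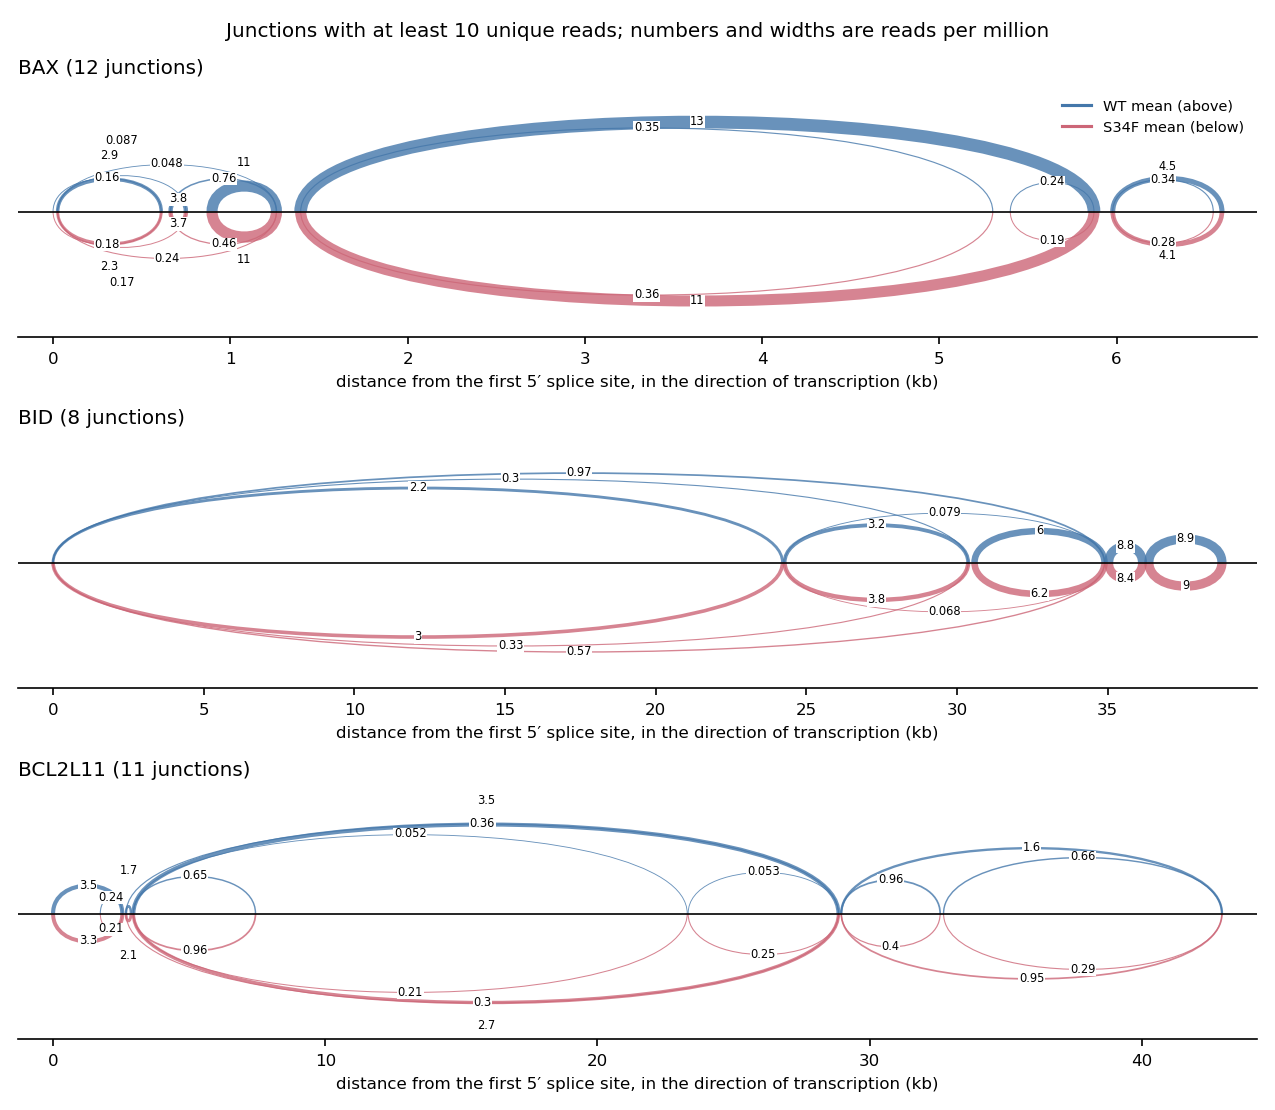
Junctions of BAX (12), BID (8) and BCL2L11 (11) with at least 10 unique reads, drawn as arcs by distance from the first 5′ splice site in kb along the direction of transcription, WT means above and S34F means below the line. Numbers and line widths are unique reads in RPM. The BAX arc from exon 4 to exon 5 stands at 12.7 in WT and 10.9 in S34F, and the arc from exon 1 to exon 4 is thin in both groups.

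The other genes of the apoptosis pathway were read from a list of 19: anti-apoptotic BCL2, BCL2L2 and BCL2A1, effectors BAK1 and BOK, BH3-only BAD, BIK, BMF, HRK, BBC3 and PMAIP1, relatives BCL2L12, BCL2L13 and BCL2L14, and downstream APAF1, CASP9, DIABLO, XIAP and CYCS. By the same edgeR tests, 0 of 47 acceptor usage events in 9 of these genes were called. In 9 of the 47 the unadjusted p was under 0.05 (19.9% of all events in the series). The counts were 0 of 50 with 11 for donor usage (17.3% of all), 0 of 24 with 6 for cassette exons (24.1% of all) and 0 of 94 with 10 for junction abundance (13.7% of all). Of those 10 junctions, 7 were in APAF1, which held 26 of the 94 tested. They are introns of 1 gene and so not independent of each other. By summed junction reads, 3 of the 19 genes had groups that did not overlap. The share over all genes was not computed, so this count is a description. APAF1, the core of the apoptosome, had 24.7, 27.5 and 30.9 RPM in WT and 20.8, 16.7 and 16.3 in S34F. All S34F libraries were lower (27.7 ± 3.1 and 17.9 ± 2.5). BMF went from 0.539 ± 0.29 to 1.47 ± 0.95 and PMAIP1 (Noxa) from 4.16 ± 0.34 to 5.01 ± 0.80, both higher in each S34F library. For these 3 genes the exact permutation p was 0.1, the smallest the design allows, and the adjusted p over the 19 genes was 0.633.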

How the data were processed

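Poly(A)+ RNA libraries were sequenced as paired-end reads, per the labels' protocols. Each deposited table held raw counts of uniquely mapped and of multi-mapped reads per splice junction, with no normalization visible in the whole numbers. STAR and hg19 are named in the submitters' processing notes; the aligner version, annotation and junction filters are not given in the sources used here. The 6 tables were joined on position and strand, and a missing junction was counted as 0. Unique counts were tested with edgeR 4.0.16 (R 4.3.3; quasi-likelihood F-test, legacy mode, robust) over all events of a class, in a model of library intercepts, count type and a genotype-by-type term, which was the term tested. Junction abundance used TMM factors and needed at least 10 reads in at least 3 libraries. Share events were kept with 20 or more reads per library and 10 or more in total for either side (for cassette exons, for each of the 3 junctions). Adjusted p-values are Benjamini-Hochberg values. Standard errors were derived from the coefficient and its F statistic. Alternatives were DESeq2 1.42.0, limma 3.58.1 on log2 odds with 0.5 added to each count, other filters, multi-mapped reads, a replicate block and leaving out each library. The scripts were tested on simulated data.

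The 5 genes, the pathway list and the tests were chosen with earlier results of these data known. Named events are the known isoform choices, all calls, and the 2 events per gene and class with the largest difference. Other events are named where they share a site with these, after their values were seen. Genes were placed by hg19 windows written by hand, since no annotation of that build was used. Splice site sequences were not used here. Some genes of the pathway and marker lists are not reported here. Levels are given in RPM, computed here from the deposited counts. Read depth limits precision, since events of low share rest on few reads.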

Additional observations from a re-analysis of the deposited data

Results flagged for a closer look

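Multi-mapped junction reads, left out of the main tests above, did not overlap between the genotypes in BCL2L1 when summed over its junctions. Per 1000000 multi-mapped spliced reads of the library, BCL2L1 had 14.8, 19.1 and 18.3 in WT and 19.6, 23.3 and 19.3 in S34F. No S34F library fell within the WT range, with means of 17.4 and 20.7, and the difference was not tested. The share of all genes without overlap was not computed, so this is a description. In the other 4 genes the groups overlapped, and the means were lower in S34F: 8.06 and 5.90 for MCL1, 9.35 and 6.81 for BCL2L11, 42.1 and 29.8 for BAX, and 6.80 and 5.07 for BID. The BCL2L1 counts were 29, 34 and 25 reads in WT and 38, 37 and 59 in S34F. Most lay on the Bcl-xS junction (33 in WT, 48 in S34F), the Bcl-xL junction (21 and 30) and 2 junctions to the acceptor at 30310134. These 2, from the 5′ sites at 30311537 and 30311666, held 14 reads in WT and 23 in S34F each. Their counts were identical in every library, with 2, 8 and 4 in WT and 8, 5 and 10 in S34F. Whether the same reads were counted on both junctions was not tested. Both counts entered the sums, in which WT replicate 2 (19.1) and S34F replicate 3 (19.3) lay close together.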

How the results depend on the processing

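The BAX exon 2 change kept its direction and lost its call under most alternatives. The count of called cassette exons in the 5 genes, 1 with edgeR, was 0 with DESeq2, with limma, with at least 50 reads in every library, with no low-count filter and with multi-mapped reads added, and ranged from 0 to 1 when each library was left out in turn. At 50 reads the event was not tested. With no filter its edgeR adjusted p was 0.133 at a log2 odds change of -2.73, and leaving out single libraries gave changes from -3.63 to -2.21 with edgeR adjusted p up to 0.145. Called acceptor events ranged from 0 to 1 when libraries were left out, the 1 being the BCL2L11 junction from 111881717 to 111907620 without WT replicate 1.

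Differences of summed junction reads in RPM (S34F minus WT) changed sign when single libraries were left out, from -3.12 to 4.14 for MCL1 (main value 0.743), -2.95 to 0.344 for BCL2L11 (-1.32), -6.79 to 0.643 for BAX (-2.86) and -2.06 to 5.13 for BID (0.862). For BCL2L1 they stayed between 1.01 and 2.39. The reversals came without WT replicate 2 (-3.12) or S34F replicate 1 (-1.24) for MCL1, without S34F replicate 1 for BCL2L11 and BAX, and without S34F replicate 2 (-2.06) or 3 (-0.48) for BID. The cause was not tested.

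Alternatives were computed for the 36 named share events. Among these, signs of the log2 odds change turned for 5 when libraries were left out. The ranges were -0.420 to 0.0624 and -0.0624 to 0.420 for the BCL2L1 acceptors 18 nt apart (sign turned without WT replicate 3). They were -0.382 to 0.350 for the 98 nt exon of BAX (turned without WT replicate 3 or S34F replicate 3, and with limma at -0.0274) and -0.0443 to 1.02 for BID exon 2 against the exon 1 to exon 3 junction (without WT replicate 3). For the 90 nt segment of BCL2L11 they were -0.0967 to 0.374 (without WT replicate 2 or S34F replicate 1).

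The replicate numbers were not used as pairs in the main tests. Deviations of same-numbered libraries from their group means correlated at -0.14, -0.14 and -0.05 over 78972 junctions. For differently numbered libraries the correlations ranged from -0.096 to 0.20. With 3 libraries per group, these values cannot show whether libraries were prepared in pairs. With the replicate number as a block, 0 cassette exons were called (BAX exon 2: log2 odds -2.76, edgeR adjusted p = 0.0875).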
